A study of Rattus norvegicus with 6 samples.

Results

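The genes described here encode proteins of RNA splicing, RNA binding and mRNA capping. They are the genes of the array whose symbol begins with Snrp, Srsf, Hnrnp, Sf3, Lsm, Rbm, Celf or Elavl, together with Rbfox1, Rbfox2, Ptbp1 and Ptbp2, the cap genes Rnmt, Ramac and Rngtt, and Rexo4. They numbered 116 of the 14217 genes with a value, and 202 of the 31042 probe sets tested. No probe set carried the symbol Nova1 alone, so this gene had no value. The beginning of a symbol is not a function, and Lsmem1 and Lsmem2, which are named as membrane proteins, came in with the letters Lsm. The tissue was the prelimbic cortex (PL) on the side opposite to the operated nerve, from male Sprague Dawley rats 14 days after an operation on the left sciatic nerve. In the SNI (spared nerve injury) group the tibial and common peroneal nerves were cut and the sural nerve was left whole, and the labels call the other group control. The protocol describes a sham operation, with the nerves laid open and not cut, but does not state outright that the control samples are from those rats. Each group had 3 samples. Whether each sample was a different rat is stated neither in the labels nor in the methods, and the p-values then measure only how far these samples differ, part of which may be technical.

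Most mRNAs of neurons are cut from longer transcripts. The spliceosome removes introns with small nuclear RNAs that are held in rings of Sm proteins, encoded by the Snrp genes, or of Lsm proteins. SR proteins (Srsf genes) and hnRNPs bind the transcript and favour or block splice sites, and the SF3A and SF3B subunits let the U2 particle find the branch point. Proteins of the Elavl, Celf, Rbfox and Ptbp groups set splicing patterns and the life of mRNAs that neurons use. Before splicing, RNGTT adds the guanosine cap to the new transcript and RNMT methylates it with RAMAC as its activating subunit.

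Each value is a log2 value relative to the median of its probe set over the 6 samples, averaged over the probe sets of a gene. With this centring, groups of a single probe set that do not overlap lie on either side of 0 by construction. Differences between the groups can be read from such values, but not the level of an mRNA, so it could not be checked whether a member or a marker of the cortex was expressed at all. Control samples 1 and 3 stood apart from the other 4 samples on the first principal component of all genes (14.3 and 8.82, against −6.07 to −5.38). The bacterial hybridization controls added to the samples were higher on all 3 SNI arrays, by 0.27 on average. The groups were compared with limma, SNI minus control, with Benjamini-Hochberg adjustment over the 14217 genes. The number of arrays limits the precision, and with 3 samples a group the smallest p of an exact permutation test is 0.1. In tissue, fewer cells of a type and less RNA per cell cannot be told apart.

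No splicing or RNA-binding gene passed an adjusted p of 0.05, and neither did any of the 14217 genes (background 0%). The smallest adjusted p among the members was 0.127, for Lsm14b and Rexo4. At an unadjusted p under 0.05, 5 members were higher in the SNI group and 16 were lower. These are 4.31% and 13.8% of the 116, beside 3.96% and 9.19% of all genes. The members higher at that threshold were Rexo4, Srsf11, Rbm5, Sf3b1 and Elavl3. The SNI samples lay wholly above the control samples for 8 members and wholly below them for 22, beside 6.39% and 13.7% of all genes. At the criteria of the study, read as a linear fold above 1.5 with an unadjusted p under 0.05, Rexo4 was higher and Ramac lower, where 0.106% of all genes passed in each direction. The median difference of the members was −0.015, close to that of all genes (−0.011). The counts at the unadjusted threshold moved with single samples. Without control sample 2, 8 members were higher and 29 lower, without SNI sample 3 the counts were 2 and 8, and without control sample 3 they were 2 and 11. When genes in the lower 25% of the SD were left out before the test, Rexo4 (adjusted p = 0.00364), Lsm14b (adjusted p = 0.0179) and Ramac (adjusted p = 0.0392) passed among 10662 genes; that filter uses the same values as the test and removes the genes with the smallest spread. Over the 16 alternative fits the adjusted p was 0.00364 to 0.593 for Rexo4, 0.0179 to 0.571 for Lsm14b and 0.0392 to 0.571 for Ramac.

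**Figure D1:**
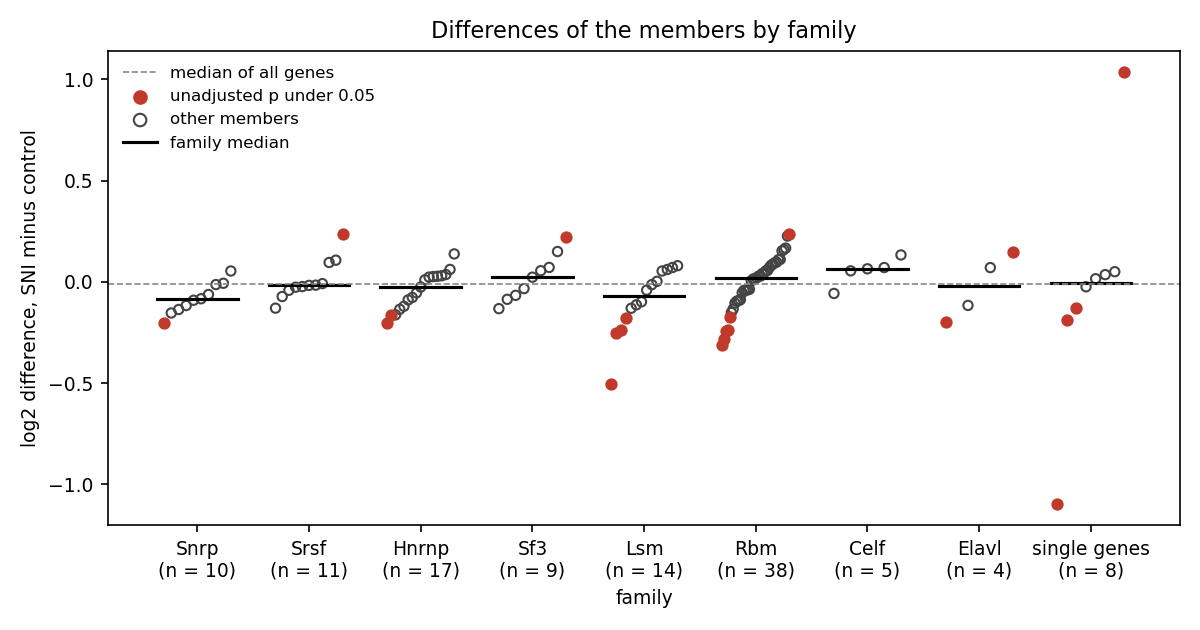
Log2 difference of each member, SNI minus control (y axis), by family (x axis, with the number of genes). Each point is 1 gene, filled red at an unadjusted p under 0.05, the black bar is the family median and the dashed line the median of all 14217 genes. Rexo4 at 1.03 and Ramac at −1.10 lie far outside the range of the families, whose lowest member is Lsm14b at −0.51.

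Rexo4, an exonuclease homolog on chromosome 3 (chr3:30678729-30692376 in GRCr8), had the largest positive difference of the 116 genes. Its SNI samples 1, 2 and 3 were at 0.96, 0.31 and 0.71, and its control samples at −0.46, −0.35 and −0.31. The groups did not overlap, and SNI sample 2 was the nearest to the control group. The log2 difference was 1.03 (SE 0.15, adjusted p = 0.127), which is a fold of 2.05, and it was 0.88 to 1.21 when any 1 of the 6 samples was left out. A single probe set read this mRNA.
Lsm14b encodes an RNA-binding protein of the family that represses and stores mRNAs in cytoplasmic granules. It was lower in the SNI group, with samples at −0.18, −0.27 and −0.23 against 0.36, 0.30 and 0.18 in the control group. No SNI sample overlapped a control sample. Its log2 difference was −0.51 (SE 0.065, adjusted p = 0.127) from a single probe set. Of the 21 members at an unadjusted p under 0.05, it was the only one that kept that threshold in all 16 alternative fits, with differences from −0.71 to −0.47. Its relative Lsm14a had a difference of −0.11 (SE 0.059, adjusted p = 0.460), and its groups overlapped (−0.12 to −0.0027 in the SNI and −0.014 to 0.087 in the control samples). Of the 2 probe sets of Lsm14a, 1 was at −0.20 (SE 0.069) without overlap and the other at −0.027 (SE 0.062) with overlap.

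The 3 genes of the cap were all lower. Ramac had the largest negative difference of the 116 genes, with SNI samples at −0.16, −1.22 and −0.37 and control samples at 0.63, 0.16 and 0.76. The SNI samples spread widely, and SNI sample 2 lay far below the other two. The log2 difference was −1.10 (SE 0.27, adjusted p = 0.212); it was −1.31 to −0.78 when 1 sample was left out, the smallest size being that without SNI sample 2. Its 2 probe sets gave the same direction but unlike sizes, −1.97 (SE 0.52) and −0.22 (SE 0.079). On the first, SNI sample 2 was at −2.37 and control samples 1 and 3 were at 1.20 and 1.22, whereas on the second no sample was further from 0 than control sample 3 (0.30).
Rngtt, the capping enzyme itself, was at −0.13, −0.19 and −0.015 in the SNI samples and at 0.060, 0.054 and 0.11 in the control samples, a log2 difference of −0.19 (SE 0.062, adjusted p = 0.279). Rnmt, the cap methyltransferase, was at −0.078, −0.056 and −0.049 against 0.089, 0.054 and 0.068, a difference of −0.13 (SE 0.049, adjusted p = 0.326). The groups did not overlap for either gene. On the Rngtt probe set at −0.24 (SE 0.090) they did overlap, but not on that at −0.14 (SE 0.060). The 2 probe sets of Rnmt, at −0.17 (SE 0.061) and −0.096 (SE 0.056), were both without overlap. The SD of the SNI samples was 0.089 for Rngtt and 0.015 for Rnmt. Their unadjusted p was over 0.05 in some alternative fits, for Rngtt in 5 of 16 and for Rnmt in 9 of 16, without a change of sign.

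**Figure D2:**
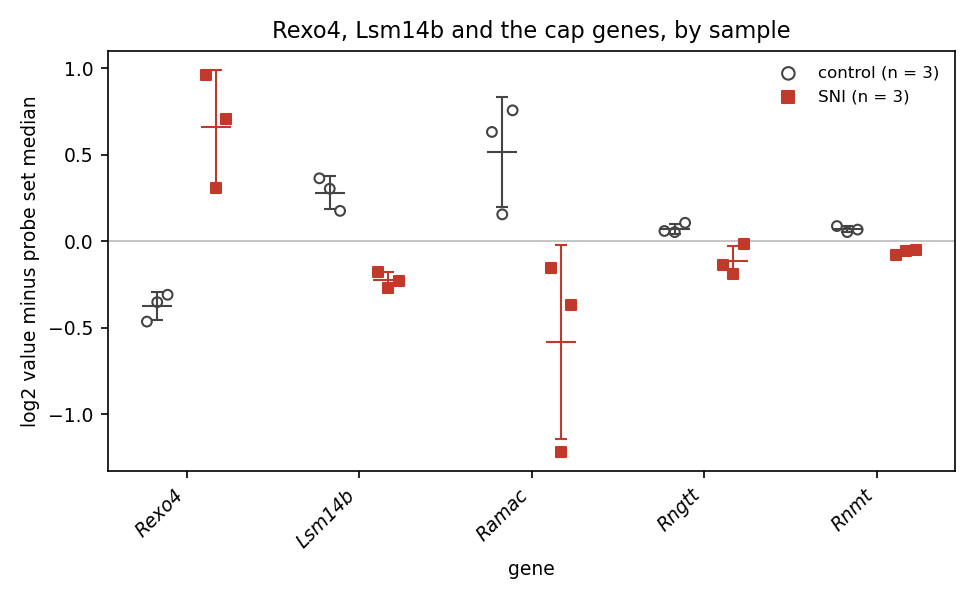
Centred log2 values (y axis) for Rexo4, Lsm14b and the cap genes Ramac, Rngtt and Rnmt (x axis). Open circles are the 3 control samples, filled squares the 3 SNI samples, a bar marks the group mean, and whiskers its SD. The Ramac SNI samples range from −1.22 to −0.16, while those of Rnmt lie within −0.078 to −0.049.

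The 250 bases before the annotated start are shown for Lsm14b and for the cap genes Ramac and Rngtt, 3 of the 16 members that were lower at an unadjusted p under 0.05. The cap gene Rnmt, also lower, is not shown, and a shared regulation of these genes was not tested. The windows are RefSeq sequences of GRCr8, 5′ to 3′. Capitals mark matches on either strand to the GC box GGGCGG, the CCAAT box CCAAT, the Ets core CCGGAAG, the cAMP response element TGACGTCA and the TATA box TATAAA.
Lsm14b, chr3:187503001-187503250, plus strand: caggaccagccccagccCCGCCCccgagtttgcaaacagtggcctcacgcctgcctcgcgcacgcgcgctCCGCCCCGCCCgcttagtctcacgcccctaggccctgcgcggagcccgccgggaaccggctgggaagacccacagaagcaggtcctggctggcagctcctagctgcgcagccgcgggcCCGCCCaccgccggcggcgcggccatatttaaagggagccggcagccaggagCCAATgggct
Ramac, chr1:145117502-145117751, plus strand: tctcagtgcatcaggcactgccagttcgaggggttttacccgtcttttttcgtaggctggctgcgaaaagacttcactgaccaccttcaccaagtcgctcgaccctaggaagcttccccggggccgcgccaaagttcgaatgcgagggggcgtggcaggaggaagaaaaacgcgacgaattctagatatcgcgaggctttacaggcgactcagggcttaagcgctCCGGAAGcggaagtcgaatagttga
Rngtt, chr5:52503085-52503334, plus strand: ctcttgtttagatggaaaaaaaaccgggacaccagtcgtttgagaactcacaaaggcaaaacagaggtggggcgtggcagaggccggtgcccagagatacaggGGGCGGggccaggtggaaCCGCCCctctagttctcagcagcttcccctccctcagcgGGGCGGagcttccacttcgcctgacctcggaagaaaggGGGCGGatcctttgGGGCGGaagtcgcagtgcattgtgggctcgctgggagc
The windows shared no motif among all 3. Lsm14b held 4 GC boxes, 2 of which overlap by a base, and 1 CCAAT box beside the start, and Rngtt held 5 GC boxes. Ramac held no GC box and 1 Ets core near its start. Of 33469 promoters of this length, 30.5% held a GC box, 34% a CCAAT box and 7.27% an Ets core, and among the 100 members with such a window the numbers were 54, 42 and 21. The GC content was 73.2% for Lsm14b, 56% for Ramac and 61.2% for Rngtt, beside a median of 60.2% in the members and 51.2% in all promoters. The cAMP response element was in 1.59% of all promoters and the TATA box in 12.9%, and neither was in the 3 windows.

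Among the Lsm genes, 9 of 14 were below 0 and 4 of them had an unadjusted p under 0.05, with none higher at that threshold, beside 54.8% of all genes below 0, 9.19% lower and 3.96% higher. Their median difference was −0.070, and −0.041 without Lsm14b. The mean over the family was −0.057 to −0.023 in the SNI samples and 0.033 to 0.064 in the control samples, so the groups did not overlap, and they did not without Lsm14b either (−0.040 to −0.012 against 0.022 to 0.041). The mean over all genes did not overlap either, at −0.0091 to −0.0032 in the SNI and 0.00075 to 0.018 in the control samples. Lsm2 and Lsm8 belong to the nuclear ring around the U6 RNA. Lsm2 was at −0.23, −0.036 and −0.16 in the SNI samples and at 0.036, 0.14 and 0.15 in the control samples, with a difference of −0.25 (SE 0.068, adjusted p = 0.223). Lsm8, the subunit that sets the nuclear ring apart from the cytoplasmic one, was at −0.031, −0.060 and −0.18 against 0.26, 0.031 and 0.16, with a difference of −0.24 (SE 0.074, adjusted p = 0.254). The groups did not overlap for either gene. Lsm1, which takes the place of Lsm8 in the cytoplasmic ring of mRNA decay, was at −0.13 (SE 0.058, adjusted p = 0.394), without overlap of the groups. The other ring subunits Lsm3 (−0.041), Lsm4 (0.0025), Lsm5 (0.080) and Lsm7 (0.053) had overlapping groups. Lsm10 and Lsm11 are parts of the U7 particle, which trims histone mRNAs. Lsm10 had a difference of −0.18 (SE 0.070, adjusted p = 0.338), while Lsm11 was at 0.061 with an interval of −0.14 to 0.27. Lsm12 was at −0.014. The membrane protein genes that share the letters were at 0.071 for Lsmem1 and −0.098 for Lsmem2, and the median of the family without them was −0.077.

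Of the 10 Snrp genes, 9 were below 0, with a median difference of −0.087, beside 54.8% of all genes below 0. The family mean of control sample 2 (−0.034) lay among the SNI samples (−0.050 to −0.0062), while control samples 1 and 3 were both at 0.087. The median turned to 0.033 when control samples 1 and 3 were left out together, where a single control sample remains and is assumed to vary like the SNI group. Snrpa, the A protein of the U1 particle, was the member with an unadjusted p under 0.05. Its SNI samples were at −0.22, −0.042 and −0.15 and its control samples at 0.042, 0.10 and 0.059, a log2 difference of −0.21 (SE 0.062, adjusted p = 0.246). SNI sample 2 and control sample 1 were the closest pair, without overlap. The Sm ring proteins Snrpb (−0.14), Snrpd1 (−0.12), Snrpd3 (−0.091), Snrpf (−0.063) and Snrpe (−0.014) were below 0 with overlapping groups. Snrpd2, of the same ring, was the exception at 0.053 (95% confidence interval −0.061 to 0.17), with every SNI sample above every control sample. The U2 proteins Snrpb2 and Snrpa1 were at −0.15 and −0.0072, and the neuronal Snrpn was at −0.084.

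**Figure D3:**
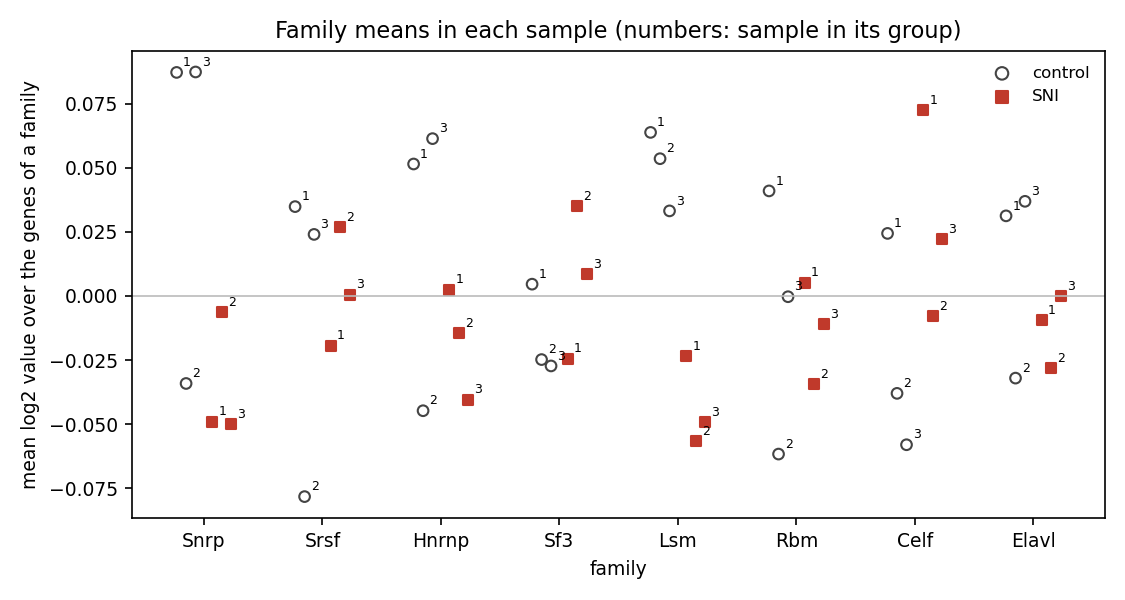
Mean log2 value over the genes of each family (y axis) in each of the 6 samples, by family (x axis). Open circles are control samples and filled squares SNI samples, and the small number is that of the sample in its group. The Lsm means do not overlap (−0.057 to −0.023 in SNI, 0.033 to 0.064 in control samples), while in the Snrp, Srsf, Hnrnp and Rbm families control sample 2 lies below control samples 1 and 3. The means over all genes, which are not drawn, do not overlap either.

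The SR protein genes as a family lay near 0. The median of the 11 Srsf genes was −0.018, 8 of them were below 0, and control sample 2 (−0.078) was lower than any other sample. Srsf11, an SR-related protein also called SRp54, was higher in the SNI group at 0.094, 0.067 and 0.077, against −0.042, −0.25 and −0.18 in the control group. The 3 SNI samples were alike and the control samples spread below 0. Its log2 difference was 0.24 (SE 0.065, adjusted p = 0.229), and 0.043 with the hybridization controls as a covariate. Srsf10, which regulates splicing under stress, had a negative difference of −0.13 (SE 0.097, adjusted p = 0.624) with overlapping groups, since control sample 2 (−0.14) was under every SNI sample. Srsf6 was at −0.073 and Srsf9 at 0.096, both with overlapping groups, and the SR protein genes Srsf1 and Srsf2 were at −0.024 and −0.027. The groups also overlapped for Srsf3, Srsf4, Srsf5 and Srsf7, with differences between −0.042 for Srsf7 and −0.0089 for Srsf5, and for Srsf7-ps4 (0.11), whose symbol is that of a pseudogene of Srsf7 and whose probes may share signal with it.
Among the 9 SF3A and SF3B genes, 5 were above 0 and the median was 0.023. Sf3b1, the large subunit that grips the branch point, was at 0.023, 0.099 and 0.039 in the SNI samples and at −0.018, −0.35 and −0.13 in the control samples. The groups did not overlap, but control sample 2 alone was far below the rest. The log2 difference was 0.22 (SE 0.086, adjusted p = 0.333) and 0.13 without control sample 2. Once the hybridization controls entered as a covariate it was 0.052, and the unadjusted p was over 0.05 in 7 of the 16 alternative fits. Sf3a2 was at 0.15 (SE 0.075, adjusted p = 0.447). The small subunits of SF3B were negative, Sf3b5 at −0.13 (SE 0.058, adjusted p = 0.384), without overlap, and Sf3b6 at −0.086, with overlap. The other 5, Sf3a1, Sf3a3, Sf3b2, Sf3b3 and Sf3b4, had overlapping groups and differences from −0.067 for Sf3b3 to 0.071 for Sf3a1.

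The 17 Hnrnp genes divided evenly, with 8 above and 9 below 0 and a median of −0.026. For 5 of them every SNI sample was below every control sample, and for none was it above, beside 13.7% and 6.39% of all genes. Hnrnpc, which binds uridine tracts and keeps splicing factors off cryptic exons, was at −0.10, −0.025 and −0.18 in the SNI samples, while the control samples were at 0.14, 0.025 and 0.14. The difference was −0.20 (SE 0.064, adjusted p = 0.257). Hnrnpf, which binds guanosine runs, was at −0.015, −0.14 and −0.080 against 0.14, 0.015 and 0.10, with a difference of −0.16 (SE 0.061, adjusted p = 0.322). For both genes control sample 2 was the control sample nearest to the SNI group. The 3 others without overlap were Hnrnpa3 (−0.12), Hnrnpab (−0.14) and Hnrnpa0 (−0.089), none with an unadjusted p under 0.05. Hnrnpul1 (0.14, SE 0.096) and Hnrnph1 (0.061, SE 0.054) had the smallest p among the positive members, with overlapping groups. The A/B family members Hnrnpa1 (95% confidence interval −0.14 to 0.21) and Hnrnpa2b1 (95% confidence interval −0.17 to 0.12) had intervals on both sides of 0. Hnrnpm, which shapes splicing in many tissues, had a difference of −0.16 (95% confidence interval −0.35 to 0.029) with overlap. The other 7, among them Hnrnpu, Hnrnpd and Hnrnpr, lay between −0.077 for Hnrnpd and 0.030 for Hnrnpl, and all of them had overlapping groups.

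Of 38 Rbm genes, a group that shares the RNA recognition motif and little else, 22 were above and 16 below 0, and the median was 0.018. At an unadjusted p under 0.05, 5 were lower and 1 was higher, 13.2% and 2.63% beside 9.19% and 3.96% of all genes. Rbm11, a splicing regulator known from brain, was at −0.20, −0.32 and −0.064 in the SNI samples and at 0.14, 0.064 and 0.15 in the control samples. The groups did not overlap, with a difference of −0.31 (SE 0.073, adjusted p = 0.206). Rbm48, a factor of the minor spliceosome, was at −0.046, −0.22 and −0.13 against 0.29, 0.046 and 0.12, a difference of −0.28 (SE 0.079, adjusted p = 0.230), and SNI sample 1 and control sample 2 were its closest pair. Rbm18 was at −0.037, −0.092 and −0.073 against 0.30, 0.028 and 0.20, with a difference of −0.24 (SE 0.076, adjusted p = 0.253). Rbm4b, a paralog of the splicing regulator Rbm4, was at −0.18 (SE 0.060, adjusted p = 0.291), whereas Rbm4 was at 0.088 (SE 0.068) with overlapping groups. The 2 are near copies, and 1 further probe set of the array carries both symbols. Rbm7, an adaptor of the nuclear exosome, was at −0.24 (SE 0.090, adjusted p = 0.326), with SNI sample 2 (0.055) above control sample 1 (−0.0030).
Rbm5, a splicing factor that acts on apoptosis genes, was the Rbm gene that was higher at that threshold. Its SNI samples were at 0.081, −0.0067 and 0.039 and its control samples at 0.0023, −0.26 and −0.34. SNI sample 2 lay below control sample 1, and the difference was 0.24 (SE 0.090, adjusted p = 0.327). With the hybridization controls as a covariate its sign turned, to −0.15, as did that of Rbm7, to 0.093. Rbm24, a regulator of muscle splicing, was at 0.17 (SE 0.078, adjusted p = 0.417). Rbm3, the cold-induced RNA-binding protein, was at 0.094 (95% confidence interval −0.12 to 0.31), and control sample 2 (−0.31) was its lowest. Rbm15, of the complex that guides methylation of adenosines in mRNA, had the second largest positive value of the family, 0.23 (95% confidence interval −0.025 to 0.48), but its groups overlapped. Rbm20, a regulator of titin splicing in heart, was at 0.16 with overlap, and Rbm12 at −0.15 (95% confidence interval −0.32 to 0.017) without. Rbm8a, which pairs with Magoh in the exon junction complex, was at −0.088 and Rbm25, a U1-associated factor, at −0.093, both with overlapping groups. Rbm39 is given with its probe sets, and for the remaining 23 Rbm genes the groups overlapped and the differences lay between −0.14 for Rbm12b and 0.15 for Rbm44.

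**Figure D4:**
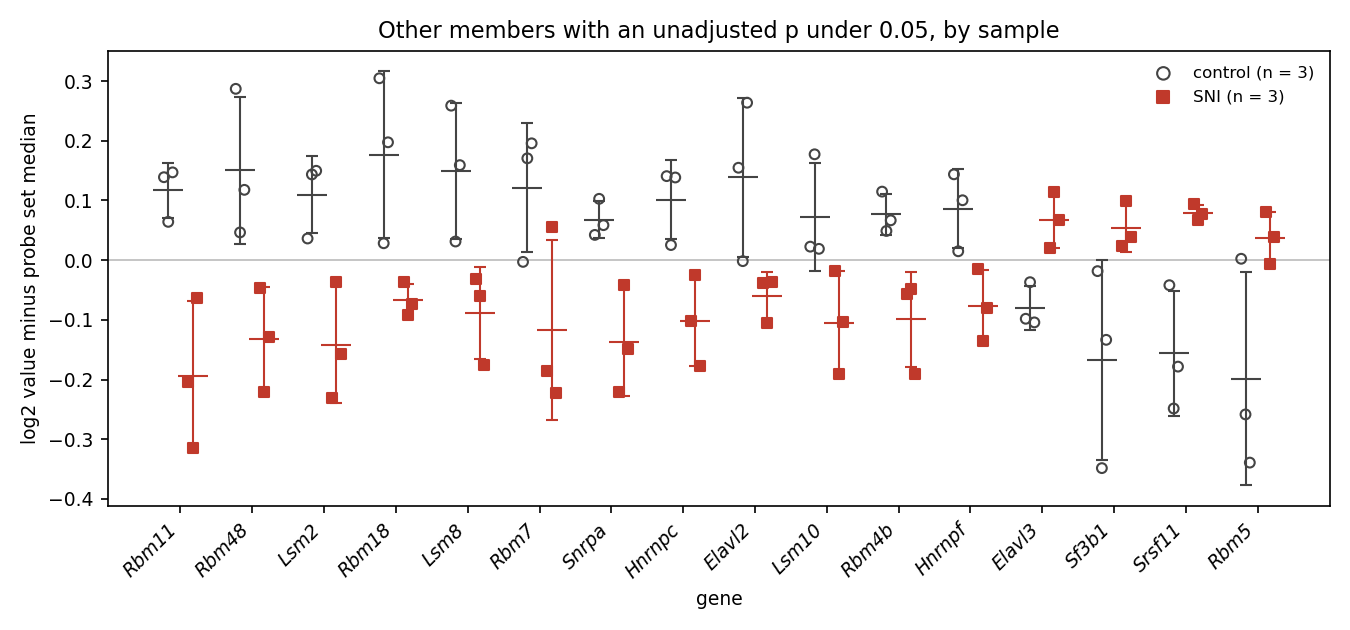
Centred log2 values (y axis) for the 16 other members with an unadjusted p under 0.05 (x axis, ordered by difference). Open circles are control samples, filled squares SNI samples, a bar marks the group mean, and whiskers its SD. The groups overlap for Rbm7 and Rbm5, and the differences run from −0.31 for Rbm11 to 0.24 for Rbm5.

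The neuronal Elavl genes differed in the sign of their values. Elavl2 was at −0.038, −0.11 and −0.036 in the SNI samples and at 0.15, −0.0017 and 0.26 in the control samples, a log2 difference of −0.20 (SE 0.075, adjusted p = 0.325). Control sample 2 was near the SNI samples, and without control samples 1 and 3 the difference was −0.058. Elavl4, the HuD protein of neurons, was at −0.013, −0.12 and −0.062 against 0.078, 0.013 and 0.064 and had a difference of −0.12 (SE 0.055, adjusted p = 0.418). Elavl3, the HuC protein, was higher, at 0.021, 0.11 and 0.067 against −0.098, −0.037 and −0.10, with a difference of 0.15 (SE 0.054, adjusted p = 0.321). Elavl1, the HuR protein of all cells, had a difference of 0.070 (SE 0.053, adjusted p = 0.627). For all 4 genes the groups did not overlap, beside 6.39% of all genes wholly higher and 13.7% wholly lower, and no test between genes was run. For Elavl1 this held only for the mean of its probe sets, which were at 0.11, 0.16 and −0.057, each with overlapping groups. The groups also overlapped on the Elavl2 probe sets at −0.26 and −0.16, but not on that at −0.17, and on the Elavl3 probe set at 0.14.
Of the 5 Celf genes, which act on alternative exons and on mRNA decay, none had an unadjusted p under 0.05, and the groups overlapped for all 5. Celf4 was at 0.13 (SE 0.065, adjusted p = 0.437), Celf5 at 0.071, Celf3 at 0.064 and Celf1 at 0.054, and Celf2 alone was below 0 at −0.058. Rbfox1, read by 6 probe sets, was at −0.025 (95% confidence interval −0.15 to 0.097), and Rbfox2 at 0.050 (95% confidence interval −0.11 to 0.21). The intervals therefore allow changes of either sign up to about the size of the Elavl differences. Ptbp1, the polypyrimidine tract protein of non-neuronal cells, was at 0.035 (95% confidence interval −0.15 to 0.22), and its neuronal counterpart Ptbp2 at 0.015 (95% confidence interval −0.22 to 0.25).
Of 10 neuron markers, 9 were below 0, beside 54.8% of all genes. At an unadjusted p under 0.05, 2 of these were lower, Syt1 (−0.38) and Snap25 (−0.13), and Camk2a was higher (0.29), beside 9.19% and 3.96% of all genes. The mean of the list was −0.11 to 0.0015 in the SNI samples and −0.029 to 0.17 in the control samples, with overlap. Of 8 microglia markers 7 were above 0, 4 of them with an unadjusted p under 0.05 (50%, beside 3.96% of all genes), with means of 0.060 to 0.15 against −0.19 to −0.066. Those of oligodendrocyte precursors (0.032 to 0.14 against −0.091 to −0.071) and of endothelium (0.029 to 0.050 against −0.15 to 0.0089) also lay apart. At an unadjusted p under 0.05, 2 of 4 precursor genes (50%) were higher, beside 3.96% of all genes. Of 6 endothelial genes, 2 (33.3%) were higher at that threshold, Cldn5 (0.22) and Slco1a4 (0.24). For the other lists the groups overlapped. Those of meninges and fibroblasts, choroid plexus and ependyma, astrocytes and oligodendrocytes lay between −0.35 and 1.02, with the highest mean in the meningeal list of control sample 3. The mean of the 3 blood genes measured was 0.0013 to 0.44 in the SNI and −0.26 to 0.016 in the control samples. Of these genes, 2 (66.7%) were higher at an unadjusted p under 0.05, beside 3.96% of all genes. They were Hbb (0.49) and Alas2 (0.44), without overlap of the groups. Slc4a1 was at 0.051 with overlapping groups. The part of cell composition in these results was not tested.

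For several members, 1 probe set stood apart from the others of the same gene. Of the 202 probe sets, 12 were higher and 22 lower at an unadjusted p under 0.05, beside 5.6% and 7.47% of all 31042, and none passed adjustment over all probe sets (background 0.0322%). The first probe set of Srsf11 was at 0.20, 0.11 and 0.16 in the SNI samples and at −0.11, −0.36 and −0.36 in the control samples, a difference of 0.44 (SE 0.083, adjusted p = 0.104), while the second was at 0.034 (SE 0.067). Rbm39, a splicing coactivator read by 5 probe sets, was named after its values were seen. Its highest probe set was at 0.14, 0.17 and 0.11 against −0.11, −0.19 and −0.31, a difference of 0.34 (SE 0.070, adjusted p = 0.124), and the other 4 lay between 0.0022 and 0.13. The 3 probe sets of Rbm5 had differences of 0.51, 0.14 and 0.057, and on the first control samples 2 and 3 were at −0.83 and −0.55. Those of Sf3b1 were at 0.39, 0.20 and 0.070, and the 4 of Rbm24 ran from 0.046 to 0.39. Probe sets also disagreed in size for members with a negative difference. The 5 of Hnrnpa3 ran from −0.27 to −0.0098 and the 5 of Srsf10 from −0.27 to −0.074. Those of Rbm18 were at −0.34 without overlap of the groups and at −0.15 with overlap. Where along the transcript a probe set lies was not analysed here. The 2 probe sets of Elavl3 were alike, at 0.15 and 0.14, as were the 3 of Elavl2 (−0.26 to −0.16).

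**Figure D5:**
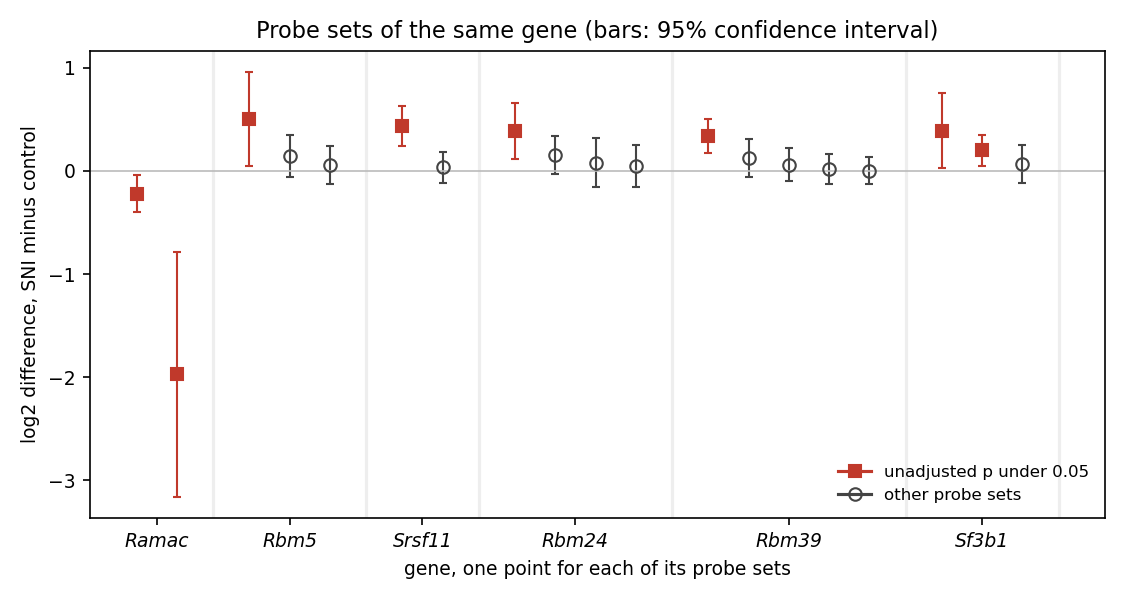
Log2 difference, SNI minus control, with its 95% confidence interval (y axis) for each probe set of 6 members (x axis). Filled red squares have an unadjusted p under 0.05 and open circles do not. Srsf11, Rbm5, Rbm24 and Rbm39 each have 1 probe set whose interval lies above 0 and others whose intervals include 0, and the wide interval of Ramac belongs to the probe set at −1.97.

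Genes of the same pathways outside the chosen families were taken from 5 lists, of which 168 of 188 entries were measured. Of these, 9 were higher and 16 lower at an unadjusted p under 0.05, 5.36% and 9.52% beside 3.96% and 9.19% of all genes, and none passed adjustment. The count of lower genes was 39 without control sample 2 and 4 without SNI sample 1, and the median of these genes was −0.035. In the core spliceosome list 46 of 61 genes were below 0 (median −0.058), beside 54.8% of all genes. At an unadjusted p under 0.05, 5 (8.20%) were lower and 1 (1.64%) was higher, beside 9.19% and 3.96% of all genes. Cdc5l, of the complex that activates the spliceosome, was at −0.17 (SE 0.050, adjusted p = 0.236), and Cwc15 of the same complex at −0.17 (SE 0.055, adjusted p = 0.270). Snrnp48, a protein of the minor U11/U12 particle, was at 0.21 (SE 0.093, adjusted p = 0.379) and Luc7l3, linked to the U1 particle, at 0.11.
Of 22 SR-related proteins and splicing kinases, 4 were higher at that threshold and 2 lower (18.2% and 9.09%, beside 3.96% and 9.19% of all genes). Clk1, a kinase that phosphorylates SR proteins, was at 0.11, 0.23 and 0.14 in the SNI samples and at −0.11, −0.13 and −0.26 in the control samples, with no overlap, and its difference was 0.32 (SE 0.064, adjusted p = 0.178). Srrm2, a large SR-repeat protein of nuclear speckles, was at 0.21 (SE 0.067, adjusted p = 0.274). Clk4, a kinase of the same group, was at 0.22 (SE 0.079) and Srrm3, a splicing factor of neurons, at 0.15 (SE 0.060); these were named after their values were seen, as the remaining 2 of the 4. On the lower side were Rnps1, which joins the exon junction complex, at −0.20 (SE 0.052, adjusted p = 0.216), and Ppig, a cyclophilin of nuclear speckles, at −0.25 (SE 0.092, adjusted p = 0.321).
The list of other regulatory RNA-binding proteins had 4 higher and 5 lower of 46 (8.70% and 10.9%, beside 3.96% and 9.19% of all genes). Zfp36l1, which promotes decay of AU-rich mRNAs, was at 0.20 (SE 0.053, adjusted p = 0.224), and Ybx3, a cold shock domain protein, at 0.29 (SE 0.080, adjusted p = 0.227). Mbnl2, a splicing regulator of the muscleblind group, was at −0.20 (SE 0.070, adjusted p = 0.291) and Khdrbs1, the Sam68 protein, at −0.14 (SE 0.053, adjusted p = 0.328).
Of 28 other genes of capping, cap binding, the exon junction and export, none was higher and 1 (3.57%) was lower, beside 3.96% and 9.19% of all genes. The lower gene was Magoh of the exon junction complex at −0.22 (SE 0.077, adjusted p = 0.303), though its groups overlapped. Thoc3, of the THO complex of mRNA export, was at −0.11, and the decapping cofactors Edc4 and Edc3 were at 0.12 and 0.064. The SMN complex loads Sm rings onto small nuclear RNAs. Of 11 genes listed for this step, which include Prmt5, Wdr77 and Clns1a from outside the complex, 9 were below 0, beside 54.8% of all genes. At an unadjusted p under 0.05, 3 (27.3%) were lower and none higher, beside 9.19% and 3.96% of all genes. Gemin4 was at −0.20 (SE 0.067, adjusted p = 0.275), Clns1a, which holds Sm proteins before loading, at −0.14 (SE 0.052, adjusted p = 0.322) and Strap at −0.15 (SE 0.059). Prmt5 and Gemin5 were at 0.055 and 0.047, with overlapping groups.

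The arrays of the groups also differed in the transcripts added to each sample. The poly-A controls, another set of added transcripts, were higher by 0.26 in the SNI group, with overlap. They were at 0.040 to 0.12 in the SNI and at −0.33 to 0.044 in the control samples. The hybridization controls were at 0.19, 0.054 and 0.097 in the SNI samples and at −0.047, −0.20 and −0.22 in the control samples, without overlap. With their mean as a covariate, 2 members were higher and 8 lower at an unadjusted p under 0.05, and 6 of these 10 were among the 21 of the fit without it. Rexo4 was then at 0.76, Lsm14b at −0.71 and Ramac at −1.87, while Lsm2 was at −0.010 and Snrpa at −0.055. Because the hybridization controls themselves did not overlap between the groups, this covariate and the group cannot be fully told apart on these arrays. For Rnmt the difference was −0.14, beside −0.13 without the covariate, while its unadjusted limma p was 0.26, beside 0.029. The distance between 3′ and 5′ probe sets of GAPDH, used as a sign of RNA degradation, was −0.00084 to 0.066 in the SNI and −0.099 to 0.00084 in the control samples. These probe sets are centred too, so the distance compares samples and does not show how far the RNA was degraded. The SNI minus control difference of this distance was 0.070 for GAPDH, 0.067 for beta-actin and 0.090 for hexokinase, each with overlapping groups. The part of these differences in the results was not tested. Of the 21 members at an unadjusted p under 0.05, 19 kept their sign in all 16 alternative fits, and Rbm5 and Rbm7 lost it with the covariate alone. The median SD of the members was 0.0527 over the SNI samples and 0.0862 over the control samples, close to that of all genes (0.0587 and 0.094).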

How the data were processed

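Total RNA of 3 SNI and 3 control samples had been hybridized to Affymetrix GeneChip rat genome arrays. Log2 values were deposited, which the authors had made with RMA and quantile normalization. In the file the median of every probe set is 0 (largest size 4.78e-07), so the values were also centred, a step that no source used here describes. The software versions behind the values are not stated in those sources. Groups came from the sample titles.

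Of 31042 probe sets without array controls, the 20826 with 1 symbol in the platform annotation were averaged to 14217 genes. All 116 members matched a RefSeq gene of GRCr8. SNI minus control was fitted with lmFit and eBayes of limma 3.58.1 in R 4.3.3, two-sided and without covariates. Benjamini-Hochberg adjustment was over all genes or all probe sets. The fit was also tested on simulated data with planted differences larger than those of most members, so that test does not cover smaller differences. Plots used Python 3.11.15 and matplotlib 3.10.9. Members, 5 pathway lists and 9 marker lists were chosen with earlier results of these data known, so a list is described by counts and medians beside all genes. A filter on low levels was not possible with centred values.

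The rule for named genes took Rexo4, Ramac, Lsm14b and the other single genes, all Celf and Elavl genes, up to 2 genes of each family or list with the smallest p in each direction, every member at an unadjusted p under 0.05 whose groups are apart, and genes with probe sets over 0.5 apart. Other members, given for their role, were chosen after their values were seen. The alternatives were repeated quantile normalization, aligned array medians, the methods' t-test, the replicate number as a block, an adjusted p under 0.10, probe sets without a shared-sequence suffix, the median of probe sets, robust variance, the mean of the hybridization controls as a covariate, the lower 25% of genes by SD left out, each sample left out in turn, and control samples 1 and 3 left out together. Lsm medians without Lsm14b or the membrane protein genes were added with the values known.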

Additional observations from a re-analysis of the deposited data

Results flagged for a closer look

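The 18 probe sets of the hybridization controls, which no comparison of genes used, had a mean that was higher on every SNI array than on every control array, 0.11 ± 0.070 (SD, n = 3) against −0.16 ± 0.097 (SD, n = 3), a difference of 0.27. The members' values with this mean as a covariate stand beside the results. Its part in them was not tested, and it cannot be fully told apart from the group, which it separates without overlap.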

How the results depend on the processing

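Repeated quantile normalization, aligned array medians, the methods' t-test, the replicate block, the suffix filter, the median of probe sets, robust variance and an adjusted p under 0.10 left 0 members past adjustment, as did leaving out any sample. By the methods' t-test 4 members were higher and 17 lower at their threshold of p, and 0 genes passed Benjamini-Hochberg adjustment. The count of all genes past adjustment was 0 to 4 with 1 sample left out, 2 with the covariate, 3 without control samples 1 and 3, and 34 with the SD filter, where 3 members passed (Rexo4, Lsm14b and Ramac). Beside the 0 genes past adjustment, 563 were higher and 1307 lower at an unadjusted p under 0.05. Members higher at that p numbered 2 to 8, and members lower 8 to 29, with 1 sample left out, 2 and 8 with the covariate, and 15 and 7 without control samples 1 and 3, which leaves 1 control sample that is assumed to vary like the other group. Other pathway genes numbered 3 to 12 higher and 4 to 39 lower with 1 sample left out, 0 and 7 with the covariate, 18 and 6 without control samples 1 and 3, and 8 lower with the SD filter. Of the family medians, those with the covariate were Srsf 0.033, Hnrnp −0.12, Rbm −0.12, Celf −0.080 and Elavl −0.11; with the SD filter Hnrnp −0.088, Lsm −0.13 and Elavl −0.12; and without control samples 1 and 3 Snrp 0.033, Srsf 0.042, Hnrnp 0.027 and Elavl 0.023. With 1 sample left out the family medians ranged from −0.13 to −0.050 (Snrp), −0.026 to 0.0045 (Srsf), −0.070 to −0.0031 (Hnrnp), 3.1e-04 to 0.031 (Sf3), −0.10 to −0.028 (Lsm), −0.026 to 0.031 (Rbm), 0.039 to 0.085 (Celf) and −0.043 to −0.0033 (Elavl), those of Srsf and Rbm taking both signs, and the Lsm median was −0.041 without Lsm14b, which was chosen with the values known. Signs of named genes turned with the covariate (Rbfox1 0.027, Rbfox2 −0.092, Ptbp2 −0.14, Snrpb 0.019, Hnrnpul1 −0.16, Sf3b5 0.010, Rbm5 −0.15, Celf4 −0.10, Elavl1 −0.0029, Celf1 −0.013, Celf3 −0.080, Snrnp48 −0.042, Luc7l3 −0.024, Srrm2 −0.0072, Prmt5 −0.070), without control samples 1 and 3 (Srsf10 0.096, Srsf6 0.0087, Sf3b6 0.0016, Lsm7 −0.033), with 1 sample left out (Ptbp1 −0.015 to 0.13, Ptbp2 −0.096 to 0.094) and with repeated quantile normalization (Ptbp2 −0.013); the cause was not tested. With the replicate number as a block, 6 members were higher and 14 lower at an unadjusted p under 0.05. Of these 20, 18 were among the 21, and the smallest limma adjusted p of a member was 0.106. The deviations of same-numbered samples from their group means correlated at −0.022, −0.0074 and −0.045, and those of other pairs at −0.046 to 0.080. Whether the numbers pair the samples is stated in neither the labels nor the methods, and so few values cannot settle it.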

Other observations

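Beside the 202 probe sets, 13 carried several symbols of which at least 1 began like a member's, and no gene was named from them. The 2 that carry Snurf and Snrpn, which share a transcript at an imprinted locus, had negative differences, SNI minus control, of −0.19 (SE 0.079, limma adjusted p = 0.351) and −0.16 (SE 0.068, adjusted p = 0.360), and no SNI sample overlapped a control sample. The probe set of Snrpc and its pseudogene was at −0.11 (SE 0.065), also without overlap. The other 10, which carry symbols such as Hnrnpk, Srsf3, Snrpg, Lsm6 and Rbm25, had overlapping groups and differences between −0.076 and 0.060.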
